A study of Mus musculus with 12 samples.

Results

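The genes of the proteasome were followed in MB114 cells, a mouse line labelled as microvascular endothelial, at 1, 5, 15 and 25 h after transfer to Matrigel. Members were all genes whose symbol in the array annotation begins with Psm, a letter from a to g and a number, leaving out the inducible catalytic subunits Psmb8, Psmb9 and Psmb10. The rule took 82 probe sets with 1 gene symbol, for 45 of the 12393 named genes on the array. A further probe set that the annotation assigns to more than 1 gene was left out, and no gene is named from it. Of the 45 genes, 43 encode subunits, assembly chaperones, activators or an inhibitor of the proteasome. The other 2, Psmc3ip and Psme3ip1, match the rule by name, encode no subunit and are given apart. Of the 43 genes, 42 passed the filter on low signals and were tested among 7379 genes. The exception was Psma8, an alpha subunit known from testis, whose signals ran from 2.2 to 42.3 on the 12 arrays.

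The proteasome is the cell's main machine for destroying proteins tagged with ubiquitin. Its core particle is a barrel of outer alpha rings, which gate the entrance, and inner beta rings, in which Psmb5, Psmb6 and Psmb7 cut the substrate. The regulatory particle caps the barrel: its base holds a ring of ATPases (Psmc genes) that unfold the substrate, and its lid removes ubiquitin. Dedicated chaperones build both particles, and the activators of the Psme genes can take the place of the regulatory particle at the barrel's ends. Genes of the core and regulatory particles are known to be induced together by the transcription factor Nfe2l1 when proteasome activity falls short.

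Each time on the gel had 3 samples that the labels call biological replicates 1 to 3, and each sample was hybridised to 1 Affymetrix array. Matrigel is a basement membrane extract of a mouse tumour on which endothelial cells line up into capillary-like cords. The cells were unmodified and came from 1 line, and all groups were on Matrigel; cells grown without it were not analysed here. Changes are therefore counted from 1 h. Signals were computed with MAS5 and are linear in brightness. Because each probe set has its own brightness, levels are compared between times and not between genes. Changes are differences of mean log2 signal, and a gene was said to rise or fall when limma's adjusted p was under 0.05. Arrays have no read depth, and 3 arrays a time limit the precision.

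Median signals per array ran from 153.6 to 209.1, and the ratio of the 3' to the 5' Gapdh control probe set ran from 0.751 to 0.876 with overlapping ranges at the 4 times. Hybridisation controls had geometric means of 800.0 to 996 on the 4 arrays numbered 1 and of 344 to 483 on the other arrays. Each time has 1 such array, and counts without them are given beside the main results. Of 12 endothelial markers 3 passed the filter (Cd34, Flt1 and Cdh5), while Pecam1 and Vwf had mean signals of 17.9 and 1.7. Of 9 fibroblast markers 7 passed, and the summed signal of the 9 went from 63736 at 1 h to 80365 at 25 h. Among those that passed, Vim went down from 18060 to 14054. The others were higher at 25 h, from Col1a1 (15384 to 15886) to Dcn (849 to 9019). The summed smooth muscle and pericyte markers (5 of 8 passed) went from 14841 to 5001. Of those that passed, Acta2 went from 8189 to 1671, Tagln from 2886 to 380 and Cnn1 from 1891 to 761. Cspg4 went from 592 to 429, while Pdgfrb went up from 1043 to 1422. The summed leukocyte markers (2 of 7, Cd14 and Csf1r) went from 4380 to 8398. Of these Cd14 went from 969 to 7206 and Csf1r from 3144 to 903, with Ptprc at 22.0. The summed parietal endoderm markers (3 of 8) went from 12170 to 18879, with Lama1 at 7.0. Those that passed were Sparc (9218 to 12558), Thbd (584 to 1710) and Pdgfra (1930 to 4165), which is also a fibroblast marker here. Sums follow the brightest genes of a list. The part of these shifts in the results below was not tested. In such bulk RNA, fewer cells of a type and less RNA per cell cannot be told apart.

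Proteasome genes were mostly at their highest at 5 h and at their lowest at 25 h. Of the 42 genes, 29 had their highest mean log2 signal at 5 h (69%) and 36 their lowest at 25 h (85.7%), whereas among all 7379 genes the shares were 23.7% and 28.9%. All 7 alpha ring genes followed this course. With limma's F test over the 4 times, 14 of the 42 changed (33.3%, against 34.9% of all genes), or 28 once replicate number was fitted as a block (55.1% of all genes). Without the block the share that passed was therefore close to the background, and with the block it was above it. The common course of the means is a description and was not tested. Without the arrays numbered 1, 1 of the 42 passed the F test. No share of all genes is given for that F test, and calls among all genes dropped too. At 25 h against 1 h, 871 of all genes rose and 688 fell without those arrays, where 1591 and 1114 did with them. The count is therefore not read as a result about these genes.

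**Figure D1:**
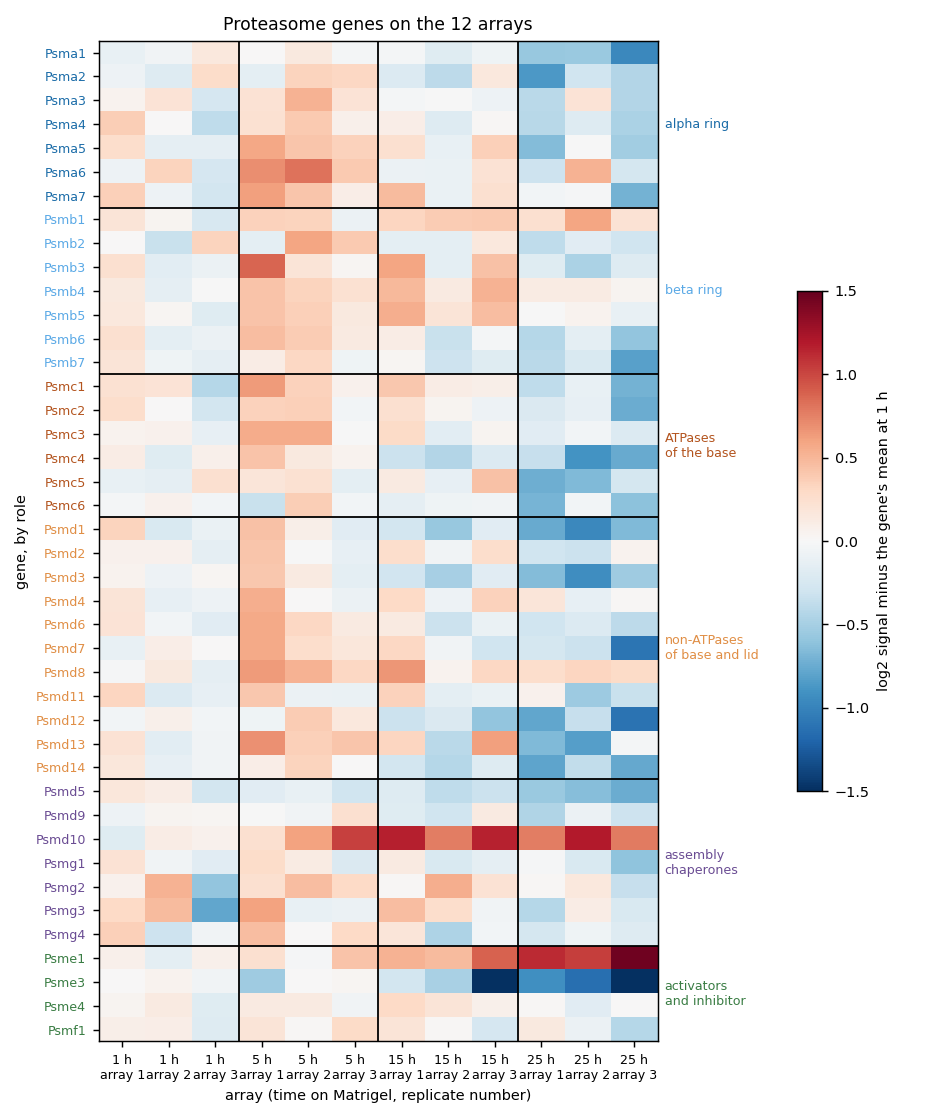
Each cell shows 1 gene on 1 array as log2 signal minus the gene's mean at 1 h, with the 42 tested proteasome genes ordered by role and colours ending at 1.5 in either direction. Most rows are red at 5 h and blue at 25 h, while Psmd10 and Psme1 turn red at the later times and Psme3 turns blue.

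At 5 h, 0 of the 42 genes differed from 1 h in limma's test, where 1.65% of all genes did (0.881% higher and 0.772% lower), and 0 did with the replicate block (4.49% and 3.28% of all genes). At an unadjusted p under 0.05, 5 were higher and 0 lower (8.54% and 5.24% of all genes). The log2 changes were above 0 for 39 of the 42 (55.7% of all genes) and had a median of 0.21, against 0.04 over all genes. Arrays of 1 and 5 h did not overlap in 8 genes, each higher at 5 h (11.3% of all genes, with 7.2% lower). The core particle had a median of 0.31 over 14 genes, with 0.20, 0.43 and 0.23 in the pairs of arrays numbered 1, 2 and 3. The regulatory particle had a median of 0.16 over 17 genes, with 0.34, 0.32 and 0.06 in the same pairs. The core median was the larger in pairs 2 and 3 and the smaller in pair 1, so the particles did not differ in 1 direction over the replicates. The largest change was that of Psma6, an alpha ring subunit, at 0.64.

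At 15 h the medians of both particles were near 0 on the deposited scale. Of the 42 genes 2 rose against 1 h and 0 fell (1 fell with the block), where 15.4% of all genes rose and 8.44% fell. At an unadjusted p under 0.05, 4 were higher and 1 lower (23.4% and 13.6% of all genes). The median was -0.01 for the core and 0.03 for the regulatory particle, and 0.12 for all genes. With median centring these were -0.18, -0.14 and -0.06. Both genes that rose, Psmd10 and Psme1, lie outside the 2 particles and are described below. With the replicate block 5 genes rose (25.1% of all genes, with 15.1% lower), the other 3 being the beta ring genes Psmb1, Psmb4 and Psmb5 (adjusted p with the block 0.0477, 0.019 and 0.0203). Without the arrays numbered 1, 0 rose and 0 fell, where 295 of all genes rose and 175 (2.37%) fell.

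At 25 h most of the falls were in the regulatory particle. Of its 17 genes, 6 fell against 1 h and 0 rose, and of the 14 core genes 1 fell and 0 rose. Among all genes 15.1% fell and 21.6% rose. With the replicate block, 12 regulatory genes and 3 core genes fell and 1 core gene, Psmb1, rose (with the block, 21% of all genes fell and 30.2% rose). The median change was -0.45 for the regulatory particle and -0.29 for the core, while the median of all genes was 0.13. Over the pairs numbered 1, 2 and 3 the regulatory medians were -0.50, -0.34 and -0.47, and the core medians -0.43, 0.01 and -0.29. The core median lay above the regulatory one in each of the 3 pairs, by 0.07, 0.35 and 0.18. No test of this difference was made, because genes of a complex are not replicates.

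In all, 9 of the 42 genes fell and 2 rose by 25 h, and with the block 17 fell and 3 rose. Without the arrays numbered 1, 3 fell (Psma1, Psmc4 and Psme3) and 2 rose, where 9.32% of all genes fell. The deposited scaling sets the trimmed mean of each array equal. Centring each array on its median instead moved the median of all genes by 0.19, and then 14 fell, 8 of them regulatory and 4 core genes, and 2 rose (19.8% of all genes fell). That scaling also changed the share of rises among all called genes from 58.8% to 41.1%, and from 64.5% to 41.7% at 15 h against 1 h. Between 5 and 15 h, 0 of the 42 changed in limma's test (8 lower and 1 higher at an unadjusted p under 0.05, against 12.8% and 18.6% of all genes), where 5.75% of all genes fell and 8.73% rose. With the block 7 fell and 1 rose (13.4% and 19.4% of all genes), and with median centring 5 fell, where 11.8% of all genes did, and the share of rises among all called genes went from 60.3% to 27.2%. Between 15 and 25 h, 0 changed (11 lower and 1 higher at an unadjusted p under 0.05, against 5.88% and 3.1% of all genes), where 0.745% of all genes fell and 0.0271% rose. With the block 3 fell and 1 rose (3.06% and 1.19% of all genes). All comparisons with the first time use the same 3 arrays of that time.

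**Figure D2:**
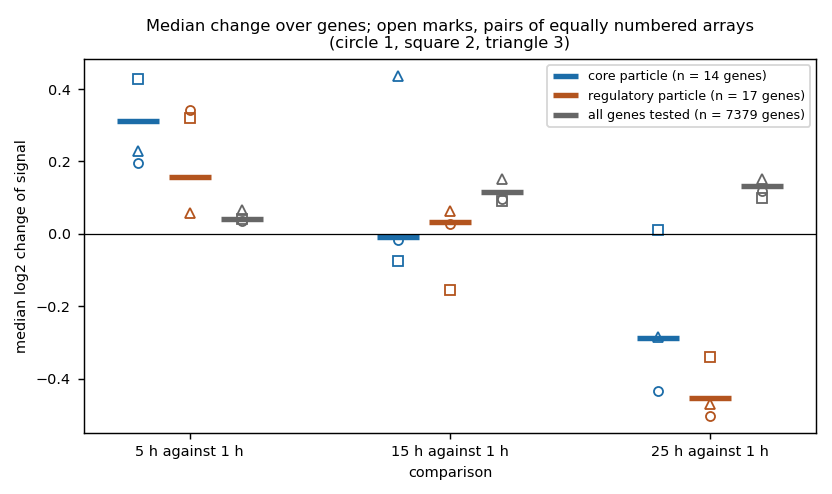
Bars give the median log2 change against 1 h (vertical axis) over the 14 core genes, the 17 regulatory genes and all 7379 genes; open marks give the same median within pairs of arrays with the same replicate number. Core and regulatory medians lie above the median of all genes at 5 h (0.31 and 0.16) and below it at 25 h (-0.29 and -0.45).

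In the alpha ring, Psma1 fell. Its signals were 1506, 1577 and 1824 at 1 h, 1633, 1810.1 and 1594 at 5 h, 1596, 1442 and 1564 at 15 h, and 1101, 1106 and 832 at 25 h (arrays 1, 2 and 3 in turn, here and below). The 3 arrays of 25 h lay below all 9 others, and the earlier times overlapped. From 1 to 25 h Psma1 fell 1.62-fold (log2 change -0.70 ± 0.16, SE; adjusted p = 0.0044). The other 6 alpha genes had changes between -0.53 and -0.02 at 25 h and did not pass the test. Of these Psma2 fell with the replicate block (adjusted p = 0.0138, and 0.0695 without it).

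In the beta ring, 0 of 7 genes changed in the 5 comparisons tested with limma, which do not include 25 h against 5 h, while Psmb6 passed the F test over the 4 times (adjusted p = 0.0458). At 25 h against 1 h, 1 of the 7 was lower and 0 higher at an unadjusted p under 0.05 (18.7% and 27.4% of all genes). Psmb5, which carries the chymotrypsin-like activity, had signals of 3584, 3304 and 2832 at 1 h, 4331, 4118 and 3567 at 5 h, 4701, 3696 and 4436 at 15 h, and 3203, 3347 and 2991 at 25 h. Its arrays of 15 h lay above those of 1 h, and those of 25 h lay within the range of 1 h. The change from 1 to 25 h was -0.02 (95% confidence interval -0.36 to 0.31, adjusted p = 0.928).

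Psmb6, the caspase-like subunit, had signals of 2344, 1798 and 1863 at 1 h, 2731, 2593 and 2176 at 5 h, 2146, 1582 and 1944 at 15 h, and 1483, 1802 and 1323 at 25 h. Its 1 and 25 h arrays overlapped, with a change of -0.38 (95% confidence interval -0.78 to 0.01, adjusted p = 0.119). Psmb7, the trypsin-like subunit, had signals of 8231, 6933 and 6597 at 1 h, 7801, 8977 and 6887 at 5 h, 7347, 5817 and 6346 at 15 h, and 5459, 6166 and 4116 at 25 h. Each 25 h array was below each 1 h array. The change of -0.48 (95% confidence interval -0.87 to -0.09) had an adjusted p of 0.0541, and 0.0085 with the block. The 3 catalytic genes thus had different estimates at 25 h with intervals that overlap. Psmb1, a structural beta subunit, was the beta gene with the highest change at 25 h (0.35, adjusted p = 0.134, and 0.044 with the block).

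**Figure D3:**
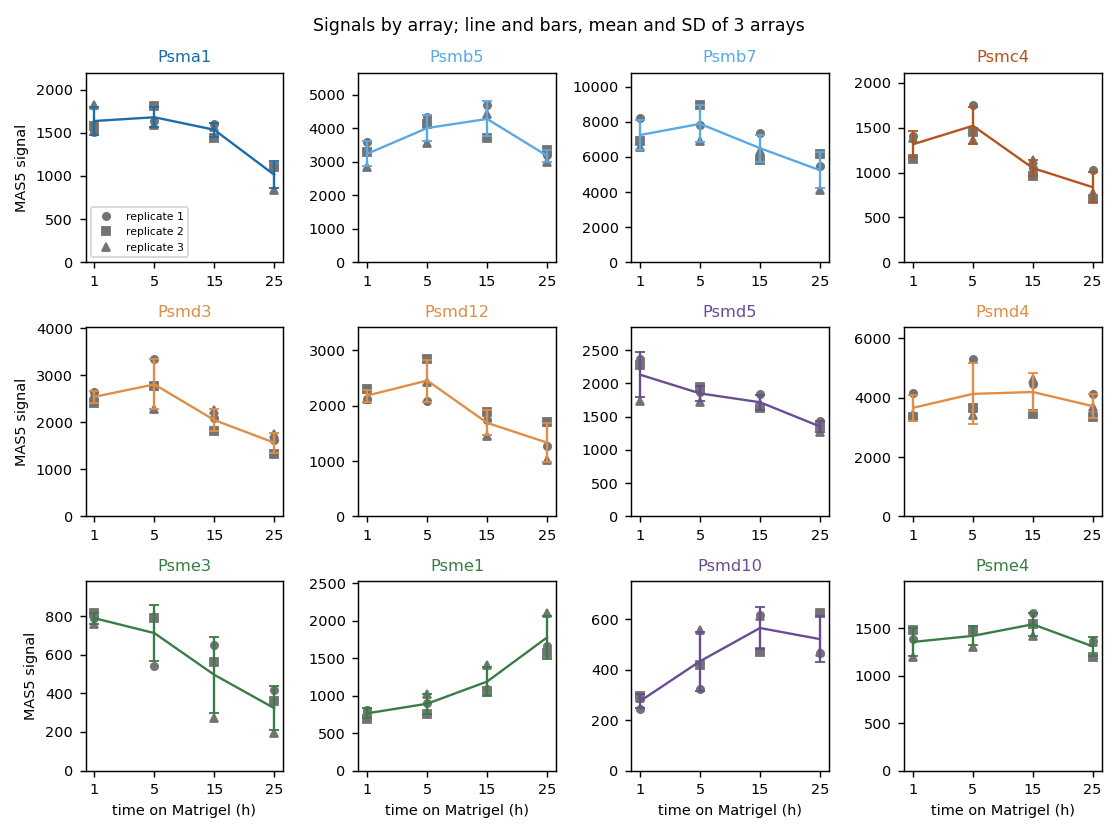
Each panel plots the MAS5 signal of 1 gene (vertical axis from 0) against the 4 times, evenly spaced; grey marks are the 3 arrays by replicate number, and the line with bars is their mean and SD. Psma1, Psmc4, Psmd3, Psmd12, Psmd5 and Psme3 are lowest at 25 h, Psme1 is highest there, Psmd10 is above its 1 h signals on every later array, and Psmd4 and Psme4 have the smallest range of means.

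Among the ATPases of the base, 2 of 6 fell by 25 h (15.1% of all genes) and 5 did with the block (21% of all genes). Psmc4 had signals of 1413, 1152 and 1383 at 1 h, 1757, 1452 and 1358 at 5 h, 1049.7, 963 and 1139 at 15 h, and 1030.0, 706 and 776 at 25 h. The 1 and 25 h arrays did not overlap, and Psmc4 fell 1.59-fold (log2 change -0.67 ± 0.18, SE; adjusted p = 0.0118). Its other probe set above the filter went the other way by 0.34, and the mean of both gave -0.16 (adjusted p = 0.485), so the fall rests on the brighter probe set. Without 25 h array 2 its call was lost as well.

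Psmc5 had signals of 2427, 2386 and 3079.6 at 1 h, 2969, 3068 and 2358 at 5 h, 2865, 2398 and 3551 at 15 h, and 1569.7, 1651 and 2175 at 25 h. The arrays of 15 and 25 h did not overlap, but that difference did not pass the test (-0.70, adjusted p = 0.167, and 0.0311 with the block). From 1 to 25 h Psmc5 fell 1.47-fold (adjusted p = 0.0431), a call lost in 10 of 21 alternatives (adjusted p up to 0.212), among them those without any one of the 1 h arrays, 5 h array 2, 15 h array 1, and 25 h arrays 1 or 2. Psmc3 was the ATPase with the smallest change, at -0.14 (adjusted p = 0.588).

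Of the 11 non-ATPase subunits of base and lid, 4 fell by 25 h and 0 rose (15.1% and 21.6% of all genes). With the block 7 fell and 0 rose (21% and 30.2% of all genes). Psmd1, the large scaffold of the base, had signals of 4977, 3375 and 3697 at 1 h, 5348, 4215 and 3519.6 at 5 h, 3261, 2680.4 and 3517 at 15 h, and 2348, 2018 and 2508 at 25 h. It fell 1.74-fold (log2 change -0.80 ± 0.20, SE; adjusted p = 0.008), the largest fall of the regulatory particle. All 3 arrays of 25 h lay below the other 9. Psmd12, a lid subunit, had signals of 2117, 2308 and 2123 at 1 h, 2089, 2845 and 2426 at 5 h, 1744, 1880.1 and 1444 at 15 h, and 1270.0, 1713 and 1015 at 25 h. Its 1 h arrays lay above all arrays of 15 and 25 h, and it fell 1.67-fold by 25 h (adjusted p = 0.0114).

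Psmd3, another lid subunit, had signals of 2638, 2399.9 and 2587 at 1 h, 3348, 2779.6 and 2288 at 5 h, 2083, 1804 and 2256 at 15 h, and 1618, 1333 and 1750.0 at 25 h. The arrays of 1, 15 and 25 h formed 3 steps without overlap, and Psmd3 fell 1.63-fold from 1 to 25 h (adjusted p = 0.0072). Psmd14, the lid's deubiquitinase, fell 1.57-fold (3886 ± 431 to 2494 ± 426, SD, n = 3; adjusted p = 0.0087). The falls of Psmd1, Psmd12, Psmd3 and Psmd14 kept their call in 20 of 21 alternatives each and lost it without the arrays numbered 1 (adjusted p 0.0637, 0.0954, 0.0578 and 0.135).

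The particle was not uniform. Psmd4, a ubiquitin receptor of the base, had the smallest range of time means of all 42 genes, 0.19 on the log2 scale. Its signals were 4157, 3351 and 3463 at 1 h, 5305, 3658 and 3417 at 5 h, 4469, 3462 and 4635 at 15 h, and 4131, 3332 and 3676 at 25 h, with all times overlapping. Its change at 25 h was 0.02 (95% confidence interval -0.40 to 0.44). These values are those of its brightest probe set, and the other 2 above the filter had changes of 0.44 and -0.69 at 15 h and of 0.02 and -0.45 at 25 h. Psmd8, a lid subunit, had a change of 0.29 at 25 h (adjusted p = 0.216), higher in 3 of 3 pairs. Psmd2, the other scaffold of the base, had -0.19 (adjusted p = 0.43). Psmd11 has 6 probe sets, of which 4 passed the filter. The brightest gave -0.27 at 25 h (adjusted p = 0.368, and 0.0315 with the block) and the others -0.54, -0.60 and -0.02.

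**Figure D4:**
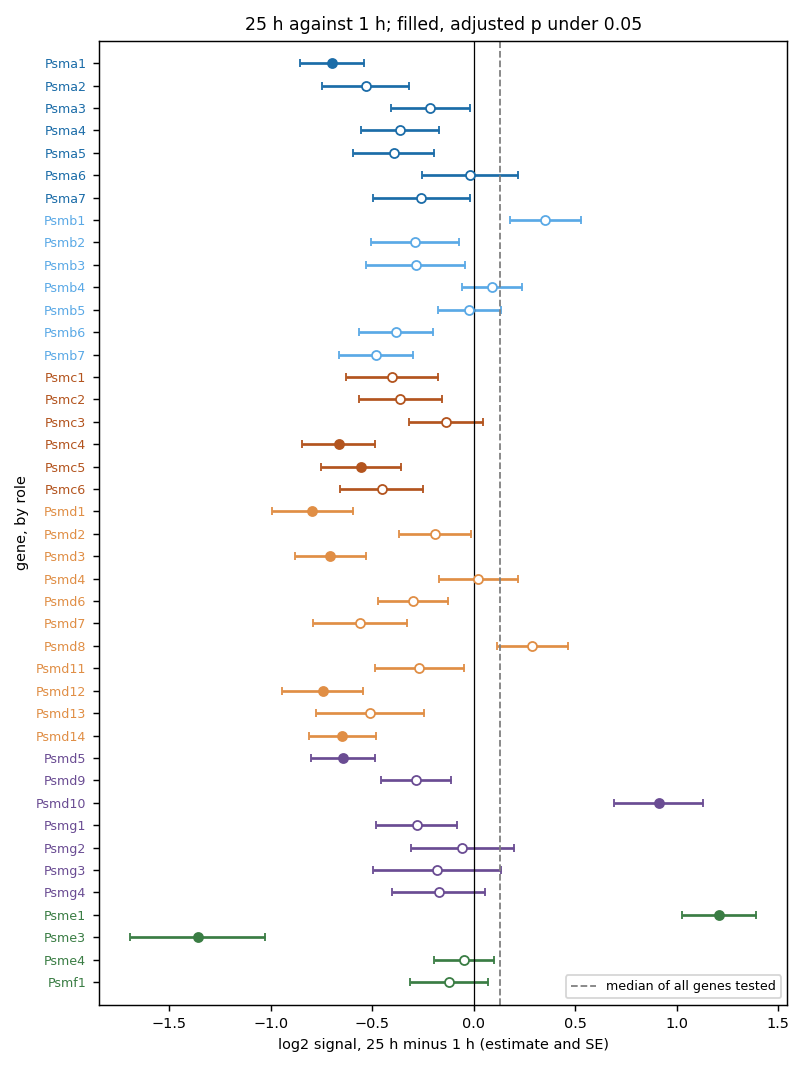
The horizontal axis gives the log2 change of signal from 1 to 25 h with its standard error for the 42 tested genes, in rows by role; filled points had an adjusted p under 0.05 and the dashed line is the median of all genes, 0.13. Filled points lie left of 0 for 9 genes, 6 of them in the regulatory particle, and right of 0 for Psmd10 and Psme1.

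Of the 7 assembly chaperones, 1 rose and 1 fell by 25 h, where 21.6% of all genes rose and 15.1% fell. The log2 changes were below 0 for 6 of the 7. Psmd10, the base chaperone also called gankyrin, had signals of 243, 297 and 288 at 1 h, 325, 419 and 558 at 5 h, 617, 469 and 612 at 15 h, and 468, 626 and 472 at 25 h. Every later array lay above the 1 h arrays, and the 15 and 25 h arrays overlapped. Psmd10 rose 2.04-fold by 15 h (log2 change 1.03 ± 0.22, SE; adjusted p = 0.006) and stood 1.88-fold higher at 25 h (adjusted p = 0.0063). The call at 15 h was lost without the arrays numbered 1 (adjusted p = 0.0777), and the one at 25 h was kept in all 21 alternatives.

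Psmd5, a second base chaperone, had signals of 2367, 2281 and 1738 at 1 h, 1876, 1950.4 and 1718 at 5 h, 1839.7, 1624 and 1683 at 15 h, and 1437, 1358 and 1262 at 25 h. Each 25 h array was below every other array. Psmd5 fell 1.56-fold from 1 to 25 h (adjusted p = 0.0064, and 0.0716 without the arrays numbered 1). The third base chaperone, Psmd9, had a change of -0.28 (adjusted p = 0.216), and Psmg1 to Psmg4, which assemble the core, had changes between -0.28 and -0.05 at 25 h that did not pass the test.

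The activators gave the largest changes of the family, one in each direction. Psme1, a subunit of the PA28 activator that is known to be induced by interferon gamma, had signals of 804, 687 and 799 at 1 h, 899, 752 and 1022 at 5 h, 1089, 1059 and 1409 at 15 h, and 1656, 1566 and 2100.2 at 25 h. The 1, 15 and 25 h arrays did not overlap. Psme1 rose 1.54-fold by 15 h (adjusted p = 0.0263) and 2.31-fold by 25 h (log2 change 1.21 ± 0.18, SE; adjusted p = 0.000354). The rise at 15 h lost its call with median centring, without 1 h arrays 1 or 2, without 15 h array 3 and without the arrays numbered 1 (adjusted p up to 0.155), while that at 25 h kept it in all 21 alternatives. With the block Psme1 also rose from 5 to 15 h and from 15 to 25 h (adjusted p = 0.0291 and 0.0238, and 0.145 and 0.251 without it).

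Psme3, which forms the nuclear activator PA28 gamma, had signals of 790.0, 816 and 761 at 1 h, 543, 791 and 802 at 5 h, 650.3, 563 and 275 at 15 h, and 416, 359.9 and 194 at 25 h. Array 3 was the lowest at 15 and at 25 h. Psme3 fell 2.57-fold by 25 h (log2 change -1.36 ± 0.33, SE; adjusted p = 0.0067), kept in all 21 alternatives, and its other probe set above the filter gave -0.83. Psme4, the PA200 activator, had signals of 1391, 1483 and 1192 at 1 h, 1477, 1476 and 1305 at 5 h, 1660.3, 1545 and 1418 at 15 h, and 1369.6, 1198 and 1358 at 25 h. With a range of time means of 0.24 it was the second most even gene of the 42. These values are those of its brightest probe set. Its other probe sets above the filter had changes of 0.08 and 0.38 at 15 h and of -0.04 and -0.14 at 25 h. Psmf1, the inhibitor PI31, had a change of -0.12 at 25 h (adjusted p = 0.648).

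The inducible catalytic subunits, which replace their constitutive relatives in immunoproteasomes, were left out by the rule and serve for comparison. Psmb10 went from 259 ± 16.9 at 1 h to 460 ± 78.8 at 5 h and 379 ± 71.8 at 25 h (SD, n = 3), with adjusted p = 0.0793 and 0.0614 against 1 h. With the block it was higher at both times (adjusted p = 0.0058 and 0.0102). Psmb8 had signals of 14.4 to 112 on the arrays numbered 1 and 2 and of 253 to 408 on the 4 arrays numbered 3. It passed the filter only through those 4 arrays, and array 3 was the highest at every time. Against 1 h the fitted fold was 3.57 at 25 h (adjusted p = 0.246, and 0.0104 with the block) and 2.83 at 15 h (adjusted p = 0.389, and 0.0361 with the block), higher in 3 of 3 pairs at both times. Psmb9 did not pass the filter.

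Of the 2 genes that match by name alone, Psmc3ip, a factor of meiotic recombination, fell 2.99-fold by 25 h (298 ± 44.1 to 105.2 ± 44.1, SD, n = 3; adjusted p = 0.0017). Between 5 and 15 h it fell 2.12-fold (adjusted p = 0.0331, lost in 6 of 21 alternatives). Psme3ip1, which encodes a partner of Psme3, had a change of 0.19 at 25 h (adjusted p = 0.453).

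Genes that act with the proteasome were counted in 3 lists. Of 9 tested proteasome-associated proteins 3 fell by 25 h and 0 rose, with a list median of -0.25, where 15.1% of all genes fell, 21.6% rose and the median was 0.13. Uchl5, a deubiquitinase of the regulatory particle, had signals of 1276, 1266 and 1194 at 1 h, 952, 1274 and 1411 at 5 h, 753, 590.4 and 565 at 15 h, and 494, 401 and 396 at 25 h. Its 15 and 25 h arrays lay below all arrays of 1 and 5 h, and it fell 2.91-fold by 25 h (adjusted p = 7.34e-05). Usp14, the other deubiquitinase, fell 2.15-fold (1643 ± 226 to 762 ± 89.7, SD, n = 3; adjusted p = 0.0093), and the mean of its probe sets gave -0.38 (adjusted p = 0.223). Zfand2a, a stress-induced partner of the proteasome, fell 1.99-fold (1326 ± 99.2 to 667 ± 77.0, SD, n = 3; adjusted p = 0.000718). Pomp, which matures the core, and Sem1, a small lid subunit, had changes of -0.00 and 0.05.

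Of 8 tested ubiquitin shuttle and segregase genes 3 fell by 25 h and 0 rose, with a median of -0.45, beside the same 15.1% and 21.6% of all genes. These were the shuttle factors Rad23b (1.73-fold, adjusted p = 0.0042) and Ubqln1 (1.45-fold, adjusted p = 0.0131) and the Vcp cofactor Nploc4 (1.53-fold, adjusted p = 0.0481, lost in 11 of 21 alternatives). Ubqln1 lost its call without 1 h array 1 and without the arrays numbered 1 (adjusted p up to 0.0718). The other 7 of the 15 genes listed, the ubiquitin genes among them, were not analysed here.

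Of 8 tested regulators, 3 fell by 25 h (Mafk, Maff and Akirin2) and 1 rose, beside 15.1% and 21.6% of all genes. Nfe2l1 had signals of 1399, 1369 and 1656 at 1 h, 1954, 1677 and 1622 at 5 h, 1475, 1509 and 1569 at 15 h, and 1491, 1274 and 1881 at 25 h. The arrays of 5 h lay above those of 15 h, all other pairs of times overlapped, and the F test gave an adjusted p of 0.605. Ngly1, the glycanase that takes part in activating Nfe2l1, rose 1.99-fold by 25 h (438 ± 89.2 to 869 ± 143, SD, n = 3; adjusted p = 0.0032). Mafk and Maff, small Maf proteins that pair with such factors, fell by 5 h, 3.72-fold (adjusted p = 0.000411, and 0.108 without the arrays numbered 1) and 3.04-fold (adjusted p = 0.0411). The early call of Maff was lost in 16 of 21 alternatives (adjusted p up to 0.283), and its call at 25 h in 5 of 21 (adjusted p up to 0.108). Akirin2, a factor that brings proteasomes into the nucleus, fell 1.43-fold by 25 h (1449.6 ± 79.4 to 1012 ± 46.1, SD, n = 3; adjusted p = 0.0143). Bach1, a repressor at the same elements, fell 2.09-fold by 5 h (adjusted p = 0.0208, lost in 6 of 21 alternatives) and at 25 h had a change of -0.32 that did not pass the test.

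**Figure D5:**
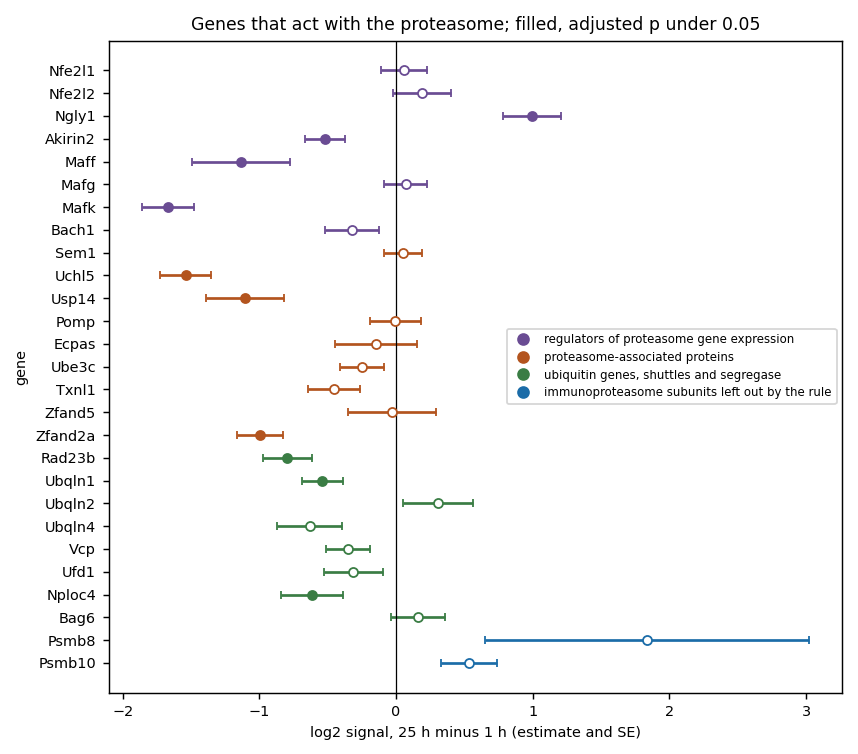
Points give the log2 change of signal from 1 to 25 h with its standard error (horizontal axis) for the tested genes of the 4 lists of genes outside the rule; filled points had an adjusted p under 0.05. Uchl5, Usp14 and Zfand2a among the associated proteins and Mafk and Maff among the regulators lie furthest left of the filled points, and Ngly1 lies on the right.

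Promoter sequences were taken from RefSeq (GRCm38.p6), where 35 of the 43 genes had an entry, to see which letters the members share. The 250 bases before the start of transcription were searched on both strands for the ETS factor core CCGGAA, the CCAAT box, the antioxidant response element core TGACNNNGC, at which factors such as Nfe2l1 bind, and the interferon-stimulated response element core. The ETS core was found in 10 of 14 regulatory particle genes (71.4%) and 2 of 11 core genes (18.2%), against 27.6% of 6049 tested genes with an entry and 13.6% of all 27025 genes. Among regulatory genes it was in 2 of the 5 that fell by 25 h and in 8 of the 9 that did not pass the test. The CCAAT box was in 6 of 11 core and 4 of 14 regulatory genes (41.2% of tested and 37.5% of all genes). The antioxidant core was in 5 of the 35 (14.3%, against 13.6% of tested and 11.5% of all genes): Psmb5, Psmb6, Psmc6, Psmd12 and Psmd9. The interferon core was in 3 of the 35 (8.57%, against 3.29% of tested and 3.46% of all genes) and not in this window of Psme1. A match is a run of letters and not a measured binding site.

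The 150 bases before the start are shown for 6 genes, 5′ to 3′ on the gene's strand, with matches in capitals. Psmc5 (chr11:106256035-106256184, plus strand) and Psmd12 (chr11:107479378-107479527, plus strand) fell and hold the ETS core, which in Psmd12 is on the opposite strand and so reads reversed and complemented. Psmd10 (chrX:140956712-140956861, minus strand) rose and holds the ETS core on its own strand and, at 2 places, the CCAAT box on the opposite strand. Psmb5 (chr14:54617996-54618145, minus strand) and Psmb6 (chr11:70525207-70525356, plus strand) are catalytic genes with the antioxidant core. Psme1 (chr14:55578344-55578493, plus strand) rose the most and holds no match.
Psmc5: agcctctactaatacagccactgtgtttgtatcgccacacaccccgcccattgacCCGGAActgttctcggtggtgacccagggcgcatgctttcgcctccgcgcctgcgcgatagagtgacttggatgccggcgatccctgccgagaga
Psmd12: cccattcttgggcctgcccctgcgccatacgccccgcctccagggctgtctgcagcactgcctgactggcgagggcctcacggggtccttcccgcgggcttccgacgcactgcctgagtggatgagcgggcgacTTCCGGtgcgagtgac
Psmd10: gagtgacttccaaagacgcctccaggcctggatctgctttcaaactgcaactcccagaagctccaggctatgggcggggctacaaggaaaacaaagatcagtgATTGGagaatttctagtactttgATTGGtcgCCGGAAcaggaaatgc
Psmb5: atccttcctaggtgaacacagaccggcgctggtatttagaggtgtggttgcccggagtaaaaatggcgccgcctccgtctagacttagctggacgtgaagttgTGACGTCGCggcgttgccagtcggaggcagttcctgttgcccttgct
Psmb6: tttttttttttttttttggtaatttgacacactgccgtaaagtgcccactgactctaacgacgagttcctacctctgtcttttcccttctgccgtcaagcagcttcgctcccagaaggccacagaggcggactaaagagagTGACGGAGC
Psme1: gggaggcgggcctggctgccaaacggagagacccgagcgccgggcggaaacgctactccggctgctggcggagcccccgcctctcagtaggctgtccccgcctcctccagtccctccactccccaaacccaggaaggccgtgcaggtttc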

How the data were processed

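Total RNA of MB114 cells on Matrigel was measured at 1, 5, 15 and 25 h, with 3 biological replicates a time, on 12 arrays. The deposited values are intensities, MAS5 signals per the submitters' processing notes, with the trimmed mean of each array between 500.13 and 500.17. The labels do not say whether replicates came from separate cultures, so p-values measure the spread between these samples. Probe sets were named from the platform annotation. Probe sets with a signal of at least 183.1, the median of all signals, on 3 arrays were kept (11652), and each gene was represented by its brightest one (7379 genes). Differences of log2 signal were fitted with limma 3.58.1 in R 4.3.3, with 1 mean per time over all 12 arrays and an intensity trend, leaving 8 residual degrees of freedom. Benjamini-Hochberg adjustment ran over all 7379 genes. Tests on single genes by exact permutation of 3 against 3 arrays could not go below p = 0.1. The fit was tested on simulated data with noise that was independent between arrays, so the pairing by replicate number was not part of that check.

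The replicate number pairs the samples: deviations from the time means correlated between arrays of the same number at 0.33 to 0.76 over 18 pairs, and between arrays of different numbers at -0.59 to 0.20, across genes. The fit with the number as a block was an alternative, beside other scalings, filters, probe set rules, an offset and leaving out each array. Leaving out all arrays numbered 1, and median centring together with the block, were chosen after seeing the data. Values on every array are given for the catalytic subunits, for up to 3 called members of each role in each direction, and for the 2 members with the smallest range of means; of each other list, up to 4 called genes with the smallest p were named. Nfe2l1, Akirin2 and single genes given as extremes of a group were chosen after their values were seen. The members and lists were chosen with earlier results of these data known. Promoter sequences are those of RefSeq.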

Additional observations from a re-analysis of the deposited data

How the results depend on the processing

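Genes named with a called change, apart from Akirin2, kept its direction under every alternative run. For Akirin2 only the fit with the block is given, in which it also fell by 25 h. The particle medians at 15 h against 1 h, near 0, did not keep their sign (core -0.03 to 0.10 and regulatory -0.06 to 0.08 over the fits that leave out 1 array). With the replicate block, the genes past the threshold at 15 h against 1 h went from 2 rises and 0 falls to 5 and 1, the falls at 25 h against 1 h from 9 to 17, those between 5 and 15 h from 0 to 7 with 1 rise, those between 15 and 25 h from 0 to 3 with 1 rise, and the F test from 14 to 28. With median centring there were 1 rise and 2 falls at 15 h, where 654 of all 7379 genes rose and 12.4% fell. The falls were 14 at 25 h (19.8% of all genes) and 5 between 5 and 15 h (11.8% of all genes). The F test then gave 24 genes, and the regulatory medians were -0.14 at 15 h and -0.65 at 25 h. The block and median centring together gave 6 falls at 15 h, 25 at 25 h, 16 between 5 and 15 h and 1 between 15 and 25 h. The F test gave 32, and the regulatory medians were the same. No shares of all genes are given for the F test with median centring or for the counts of both settings together. Each setting alone also moved the calls among all genes. Quantile normalization gave 4 rises at 15 h, where 953 of all 7379 genes rose. The mean of all probe sets gave 1 fall at 15 h, 1 between 5 and 15 h and a regulatory median of -0.36 at 25 h. Without the arrays numbered 1 there were 0 rises at 15 h, 3 falls at 25 h, 1 gene in the F test and a regulatory median of -0.32 at 25 h. Fewer samples entered that fit, and no share of all genes is given for its F test. Leaving out each array in turn gave 1 to 3 rises at 15 h (1 without 1 h array 1, 1 h array 2 or 15 h array 3), 8 to 10 falls at 25 h, 0 to 1 falls between 5 and 15 h, and a regulatory median of -0.50 to -0.31 at 25 h, the latter without 25 h array 3. No shares of all genes are given for the mean of all probe sets or for the fits that leave out 1 array. The causes of the other moves were not tested. At 5 h against 1 h, 0 of the 42 genes were past the threshold, and the part of the sample size in this was not tested.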
